A study of Mus musculus with 8 samples.

Results

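Cytochrome P450 genes were taken as the protein-coding mouse genes whose symbol is Cyp followed by digits, letters and digits, such as Cyp2e1. The rule gave 98 genes of 21887 protein-coding genes in the RefSeq annotation of GRCm38.p6, the assembly that mm10 stands for. Open chromatin at these genes was read from 5 deposited lists of ATAC-seq peaks, which mark DNA that the transposase Tn5 can cut. A gene-end peak, or end peak for short, is one that touches the 1 kb on either side of either end of a gene, and a locus peak is one that touches the gene body or the 10 kb on either side of it. A peak that lay in the flanks of neighbouring P450 genes was counted once in all totals of distinct peaks. A locus peak can also lie at the end of a neighbouring gene that is not a P450 gene. Distances of peak summits are in bases from the gene start in the RefSeq promoter table, with upstream negative.

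The samples were primary liver cells of mice with a triple knockout of the Rb family, sorted for YFP, which per the labels' protocols shows that Cre had recombined the floxed alleles. The cells came from digested liver or from macroscopic lesions, were fractioned by surface Thy1 and Epcam, and no treatment was given. The labels put 8 samples in 5 groups: EpCam_High_CK19 with 2 samples, EpCam_High_Sox9 with 1, Thy1+ CK19 with 2, Thy1+ Sox9 with 1, and Epcam- with 2. The labels do not say what CK19 and Sox9 stand for, which promoter drove Cre, or the age of the animals. The peak lists are named EpCAM-high and Prog-like, each with a CK19 and a Sox9 list, and Tumor, with a Sox9 list. Where 5 values are given below they stand in this order, CK19 before Sox9. The names of the EpCAM-high lists match sample groups. The names Prog-like and Tumor are used by no sample label, so those 3 lists are described by name and tied to no group. Each condition has a single list and no replicate, so differences between lists are given as counts with no test. The lists held 56932, 59454, 71375, 67855 and 39644 peaks. Because a longer list touches more genes, counts are also given with each list cut to its 39644 most significant peaks, called equal length below.

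P450 enzymes are haem proteins that put oxygen into lipophilic substrates, with electrons passed on by P450 reductase or, in mitochondria, by ferredoxin. In the liver, families CYP1 to CYP3 oxidise drugs, toxins and steroids, CYP4 and CYP2J act on fatty acids and eicosanoids, and CYP7, CYP8, CYP27 and CYP39 turn cholesterol into bile acids. Hepatocytes express most of the liver forms under nuclear receptors such as PXR, CAR, PPARA and HNF4A, and many of the genes stand in tandem arrays of close copies.

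P450 genes had fewer peaks at their ends than genes in general in all 5 lists, and among P450 genes the Prog-like lists had the fewest. An end peak was found at 36, 29, 19, 18 and 30 of the 98 genes. These counts are 36.7% (95% exact Clopper-Pearson interval 27.2 to 47.1), 29.6% (20.8 to 39.7), 19.4% (12.1 to 28.6), 18.4% (11.3 to 27.5) and 30.6% (21.7 to 40.7). The intervals cover counting error only. Over all protein-coding genes the shares were 57.8%, 57.7%, 57.4%, 54.4% and 51.1%. The Prog-like lists touched all genes about as often as the EpCAM-high lists did, while their P450 counts were lower. The shorter Tumor list touched the fewest genes overall and yet held the second highest P450 count. At equal length the P450 counts were 26, 21, 14, 13 and 30, against 53.2%, 51.1%, 48.1%, 45.9% and 51.1% of all genes, so that the Tumor list then held the highest count. The lowest −log10 q of the authors left by this cut was 6.73, 7.88, 25.54, 19.5 and 1.3, so the lists then differed in stringency. With a −log10 q of 5 or more in every list the P450 counts were 32, 24, 17, 18 and 25. EpCAM-high CK19 then held the highest. These last counts were not set against those of all genes. In sorted cells measured in bulk, fewer cells of a type and less open DNA per cell cannot be told apart.

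**Figure D1:**
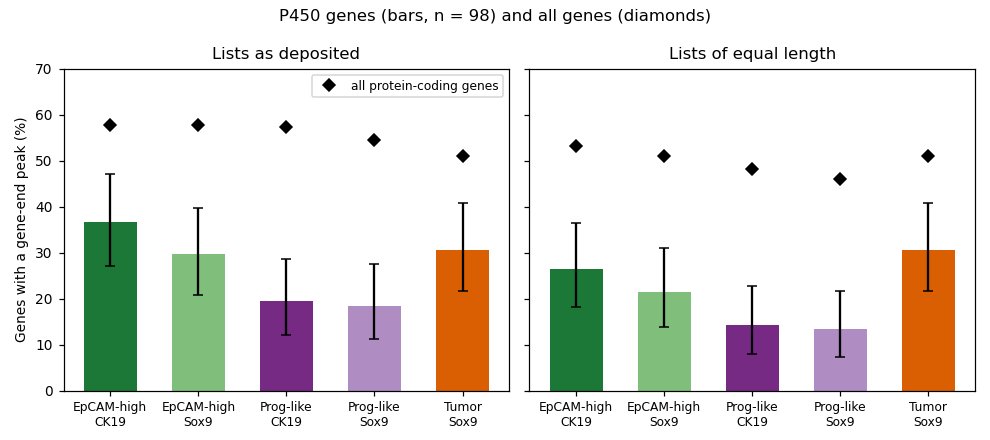
Share of genes with an end peak (percent, y axis) in each of the 5 peak lists (x axis), as deposited (left) and at equal length (right). Bars are the 98 P450 genes with 95% exact binomial intervals and diamonds are all 21887 protein-coding genes; each bar is below its diamond, and the Prog-like bars, at 19.4% and 18.4% as deposited, are the lowest.

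Counting whole loci gave the same order of Prog-like and EpCAM-high lists. A locus peak was present at 56, 48, 36, 38 and 50 P450 genes, against 75.8%, 74.6%, 74.5%, 72.4% and 68.8% of all genes. At equal length the counts were 43, 40, 28, 30 and 50, against 69.9%, 68.3%, 65.5%, 64% and 68.8%. The loci joined into 4.42 Mb, which held 105, 102, 77, 75 and 88 distinct peaks. This is 2.37, 2.31, 1.74, 1.7 and 1.99 peaks per 100 kb, where the joined loci of all protein-coding genes held 2.82, 3.15, 3.99, 3.75 and 2.09. In the Tumor list the P450 loci were thus about as densely marked as gene loci in general, and the Prog-like lists held the fewest peaks per length. With flanks of 50 kb the distinct peaks were 204, 225, 227, 211 and 187, which were not set against those of all genes. P450 genes were not short, with a median length of 22 kb against 17.2 kb for all genes.

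Markers of other cell types differed between the same lists. End peaks were found at 6, 7, 1, 1 and 9 of 10 hepatocyte marker genes, at 8, 8, 4, 2 and 4 of 8 biliary markers, and at 0, 1, 8, 8 and 0 of 8 macrophage markers. The hepatocyte gene Alb had 1, 3, 0, 0 and 4 locus peaks, the biliary keratin gene Krt19 had 4, 6, 0, 0 and 0, and the Kupffer cell gene Clec4f had 0, 0, 6, 7 and 0. Endothelial markers had end peaks at 1, 0, 3, 3 and 0 of 6 genes, stellate cell markers at 3, 3, 2, 2 and 2 of 6, and lymphocyte markers at 1, 0, 1, 1 and 0 of 5. All protein-coding genes had shares of 57.8%, 57.7%, 57.4%, 54.4% and 51.1%. At equal length the counts were 5, 6, 1, 0 and 9 for hepatocyte, 7, 8, 0, 0 and 4 for biliary and 0, 1, 8, 7 and 0 for macrophage markers. They were 0, 0, 2, 2 and 0 for endothelial, 3, 2, 0, 0 and 2 for stellate and 0, 0, 1, 0 and 0 for lymphocyte markers. The shares of all genes were then 53.2%, 51.1%, 48.1%, 45.9% and 51.1%. The part that the mix of cell types plays in the P450 counts was not tested.

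P450 genes were spread over list patterns differently from genes in general. Only 11 P450 genes (11.2%) had an end peak in all 5 lists, against 44.2% of all genes, and 47 (48%) had one in no list, against 32.4%. The remaining 40 (40.8%) differed between lists, against 23.4% of all genes. The Tumor list alone held an end peak at 12 P450 genes (12.2%), where 1.24% of all genes showed that pattern. EpCAM-high CK19 alone held 6 (6.12%, against 1.42%), EpCAM-high Sox9 alone 0 (against 1.21%), Prog-like CK19 alone 0 (against 0.95%), and Prog-like Sox9 alone 1 (against 0.306%). At equal length the Tumor-alone count was 14 of 98, against 2.62% of all genes, as Cyp4f14 and Cyp4f17 joined the 12, and 8 genes had one in all 5 lists (8.16%, against 38.6%).

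The 12 genes with an end peak in the Tumor list alone included 8 of the 51 drug and steroid oxidising genes, where 12 of all 98 P450 genes showed this pattern. They were Cyp2a12, Cyp2c70, Cyp2d9, Cyp2d10, Cyp2d26, Cyp2w1, Cyp3a11 and Cyp3a59 from those families, with Cyp4a31, Cyp8b1, Cyp17a1 and Cyp26a1. The 11 genes with an end peak in all 5 lists held 4 of the 6 bile acid and sterol genes (Cyp7b1, Cyp27a1, Cyp39a1 and Cyp46a1) and 4 of the 28 fatty acid genes (Cyp2u1, Cyp4f13, Cyp4f17 and Cyp4v3). The others were the vitamin D hydroxylase gene Cyp2r1, Cyp1b1 and Cyp20a1, so that 1 of the 51 drug and steroid oxidising genes was among them. The patterns also differed in the rank of their peaks, taken by the authors' −log10 q within each list. End peaks of the 11 shared genes had median percentiles of 85.5, 85.4, 85.4, 88.1 and 81.7. Their lowest percentiles were 24.1, 17.3, 11.6, 20.2 and 18.9, so that the ranges overlapped those of the patterns below. The 15 end peaks of the 12 Tumor-alone genes ran from percentile 16.4 to 65.8 of the Tumor list, with a median of 38.1, and the 7 of the EpCAM-high CK19-alone genes ran from 10.7 to 42.4. Peaks found in 1 list alone were thus mostly of low or middle rank in that list.

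**Figure D2:**
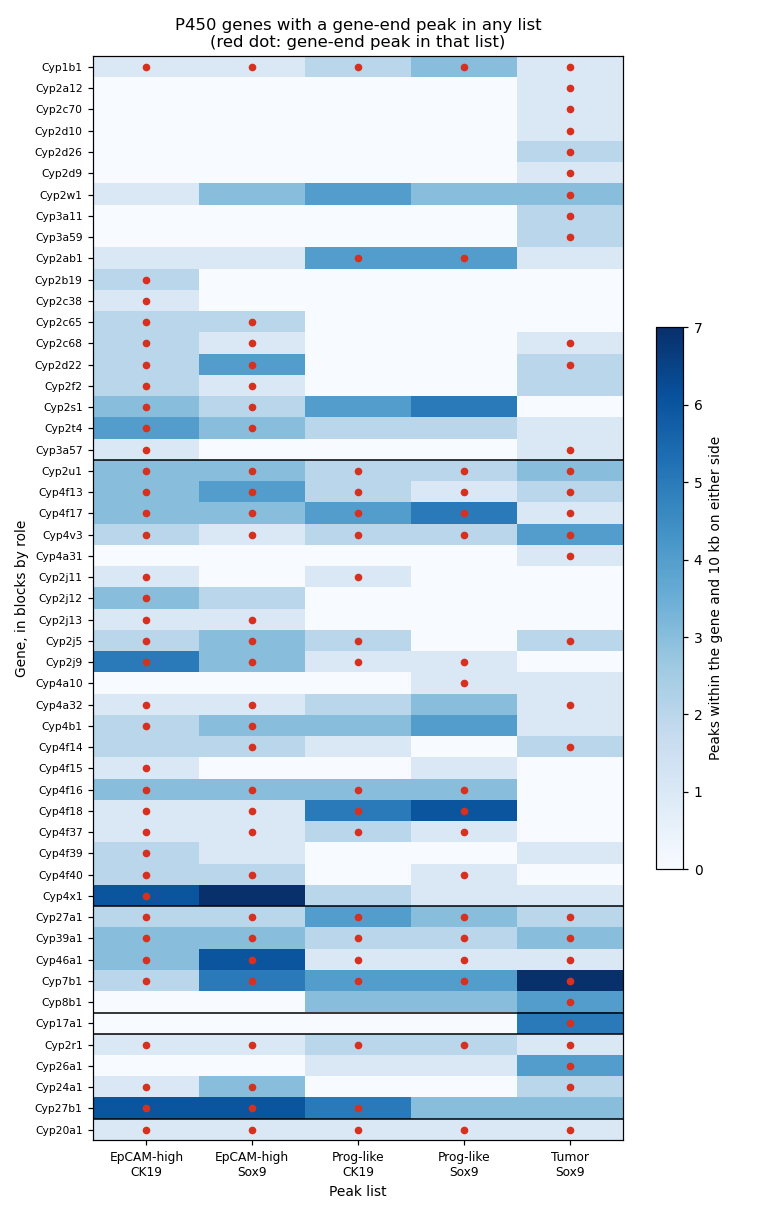
Locus peaks (colour, 0 to 7 peaks) at the P450 genes with an end peak in any list (rows, in blocks by role) in the 5 peak lists (columns), with a red dot where an end peak was present. The 12 rows dotted in the Tumor column alone stand beside 11 rows dotted in all 5 columns.

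Promoters of 7 genes show these patterns in sequence. They run from 250 bases before the gene start to 50 after it, are credited to RefSeq (GRCm38.p6), and are written 5′ to 3′ on the gene's own strand. Cyp3a11, Cyp2c70 and Cyp8b1 are from the Tumor-alone genes, Cyp2c68 had a gene-start peak in the EpCAM-high and Tumor lists, Cyp2s1 in the EpCAM-high lists alone, Cyp2ab1 in the Prog-like lists alone and Cyp20a1 in all 5. Capitals mark exact matches, on either strand, to any of 10 motifs searched: HNF4A CAAAGTCCA, the inverted repeat of HNF1, CEBP TTGCNNAA, AHR-ARNT GCGTG, NR5A TCAAGGTCA, TEAD GGAATG, AP-1 TGANTCA, the nuclear receptor hexamer AGGTCA, the TATA box TATAAA and the E-box CACGTG.
Cyp3a11, chr5:145879805-145880104 (- strand): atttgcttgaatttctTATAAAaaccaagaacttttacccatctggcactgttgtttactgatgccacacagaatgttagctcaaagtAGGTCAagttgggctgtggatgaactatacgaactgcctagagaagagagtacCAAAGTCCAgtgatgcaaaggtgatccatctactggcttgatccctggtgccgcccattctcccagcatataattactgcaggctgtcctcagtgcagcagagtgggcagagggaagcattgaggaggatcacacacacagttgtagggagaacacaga
Cyp2c70, chr19:40187237-40187536 (- strand): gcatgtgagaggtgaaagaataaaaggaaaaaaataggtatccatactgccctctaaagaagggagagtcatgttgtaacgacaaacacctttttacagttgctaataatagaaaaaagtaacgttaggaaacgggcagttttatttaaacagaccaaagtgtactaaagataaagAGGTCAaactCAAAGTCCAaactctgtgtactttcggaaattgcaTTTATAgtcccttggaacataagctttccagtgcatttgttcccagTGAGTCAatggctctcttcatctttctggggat
Cyp8b1, chr9:121916256-121916555 (- strand): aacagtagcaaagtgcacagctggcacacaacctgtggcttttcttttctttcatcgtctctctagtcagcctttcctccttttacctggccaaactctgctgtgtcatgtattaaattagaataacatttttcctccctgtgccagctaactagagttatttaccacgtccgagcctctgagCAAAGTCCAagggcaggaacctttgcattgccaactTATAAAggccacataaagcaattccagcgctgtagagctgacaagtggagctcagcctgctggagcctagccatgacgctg
Cyp2c68, chr19:39741052-39741351 (- strand): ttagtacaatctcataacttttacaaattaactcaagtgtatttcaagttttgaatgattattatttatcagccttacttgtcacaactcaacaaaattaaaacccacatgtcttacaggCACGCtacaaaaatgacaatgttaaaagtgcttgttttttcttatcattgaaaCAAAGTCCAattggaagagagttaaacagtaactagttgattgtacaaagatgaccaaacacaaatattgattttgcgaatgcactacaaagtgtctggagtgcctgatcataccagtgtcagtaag
Cyp2s1, chr7:25816476-25816775 (- strand): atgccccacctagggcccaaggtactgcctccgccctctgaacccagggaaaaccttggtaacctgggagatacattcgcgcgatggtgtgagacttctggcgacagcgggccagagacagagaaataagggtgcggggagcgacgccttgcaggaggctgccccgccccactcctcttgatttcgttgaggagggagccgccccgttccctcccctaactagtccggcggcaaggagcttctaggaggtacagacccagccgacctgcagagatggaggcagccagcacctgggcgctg
Cyp2ab1, chr16:20325355-20325654 (- strand): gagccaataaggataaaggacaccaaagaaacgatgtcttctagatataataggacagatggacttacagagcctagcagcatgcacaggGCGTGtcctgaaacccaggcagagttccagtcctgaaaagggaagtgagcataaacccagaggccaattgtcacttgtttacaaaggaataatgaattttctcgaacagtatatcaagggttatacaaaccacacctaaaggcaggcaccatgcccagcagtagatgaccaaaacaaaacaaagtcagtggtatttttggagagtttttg
Cyp20a1, chr1:60343050-60343349 (+ strand): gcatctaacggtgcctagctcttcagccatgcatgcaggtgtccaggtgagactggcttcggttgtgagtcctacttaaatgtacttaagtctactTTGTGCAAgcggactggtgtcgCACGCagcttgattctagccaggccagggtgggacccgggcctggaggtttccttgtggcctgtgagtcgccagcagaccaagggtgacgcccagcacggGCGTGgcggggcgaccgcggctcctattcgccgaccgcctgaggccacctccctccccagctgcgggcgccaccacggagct
The HNF4A letters stood with their first base at −109 from the start in Cyp3a11, −64 in Cyp2c70, −67 in Cyp8b1 and −77 in Cyp2c68. In Cyp3a11 and Cyp8b1 these letters lay under the Tumor peak, and in Cyp2c68 they lay under the peaks of both EpCAM-high lists and of Tumor. In Cyp2c70 the Tumor peak began farther upstream and did not cover them. Matches to TATAAA had their first base at −31 in Cyp8b1 and −234 in Cyp3a11. In Cyp2c70 the match was at −29 but on the opposite strand, the gene's own strand reading TTTATA. These letters lay under the Tumor peak in Cyp8b1 and under no peak in Cyp2c70 and Cyp3a11. The promoter of Cyp2s1 held none of the 10 motifs, and its GC content was 63%, the same as that of Cyp20a1, against 32.3% for Cyp2c68.

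Among the drug and steroid oxidising genes, 51 in number, end peaks were present at 10, 7, 2, 2 and 12 genes, and at 9, 4, 2, 2 and 12 at equal length. This group and the role groups below stand beside 57.8%, 57.7%, 57.4%, 54.4% and 51.1% of all protein-coding genes as deposited. The 2 Prog-like genes were Cyp1b1 and Cyp2ab1 in both lists. In the 3A and 2D arrays the Tumor list held most peaks and the Prog-like lists none.

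CYP3A enzymes oxidise a wide range of drugs, and Cyp3a11 is the main adult liver form induced through PXR. The 8 CYP3A genes in the array on chromosome 5 (145345149 to 146114978) had 2, 0, 0, 0 and 9 distinct locus peaks. Cyp3a11 had 0, 0, 0, 0 and 2, of which one (145879312 to 145880033) had its summit at −17 and the other lay upstream with its summit at −1496. The start peak had a fold enrichment of 3.56 and a −log10 q of 4.15 in the authors' list, at percentile 23.1, and the upstream peak had a −log10 q of 11.9 at percentile 61.7. Cyp3a59 showed the same pattern, with 0, 0, 0, 0 and 2 locus peaks and a summit at −109, percentile 49.6. Cyp3a57 had an end peak in EpCAM-high CK19 and Tumor, while Cyp3a25, Cyp3a41a and Cyp3a41b had no locus peak in any list. Cyp3a13, which stands apart from the array on the same chromosome, had 1, 2, 2, 2 and 3 locus peaks. Its peaks over the promoter start were in the EpCAM-high and Tumor lists (summits at −76, −81 and 5), and its Prog-like summits lay 35394 to 38490 bases downstream.

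CYP2D enzymes act on basic drugs and steroids, and the 8 genes of the array on chromosome 15 had 2, 4, 0, 0 and 6 distinct locus peaks. Cyp2d26 had 0, 0, 0, 0 and 2, with a summit at −117, percentile 43.7, and a further peak upstream with its summit at −1887. Cyp2d9 and Cyp2d10 each had 1 peak, in the Tumor list. Cyp2d22, the gene at the left edge of the array, was the exception: it had 2, 4, 0, 0 and 2 locus peaks and an end peak in both EpCAM-high lists as well as in Tumor. No locus peak of this array was in a Prog-like list.

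The CYP2C array on chromosome 19 (39006940 to 40187286) had 9, 5, 0, 0 and 3 distinct locus peaks over 14 genes. These were 5, 1, 0, 0 and 3 at equal length, so that EpCAM-high Sox9 then stood below Tumor. CYP2C enzymes oxidise drugs and arachidonic acid, and Cyp2c70 is known for making the muricholic bile acids of rodents. Cyp2c65 had 2, 2, 0, 0 and 0 locus peaks, in the EpCAM-high lists and in no other. Cyp2c29 had 2, 0, 0, 0 and 0, in EpCAM-high CK19 alone, at percentiles 20.7 and 7.65. At equal length Cyp2c65 kept its peaks in EpCAM-high CK19 alone, and Cyp2c29 kept none. Cyp2c68 had 2, 1, 0, 0 and 1, with a start peak at percentile 78.9 of the CK19 and 81.5 of the Sox9 list of EpCAM-high, and at 57.4 of Tumor, its summit 10 or 11 bases after the start in each. Cyp2c70 had a single peak, in the Tumor list, with its summit at −208 and at percentile 31. The 7 genes Cyp2c37, Cyp2c40, Cyp2c50, Cyp2c54, Cyp2c66, Cyp2c67 and Cyp2c69 had no locus peak in any list.

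**Figure D3:**
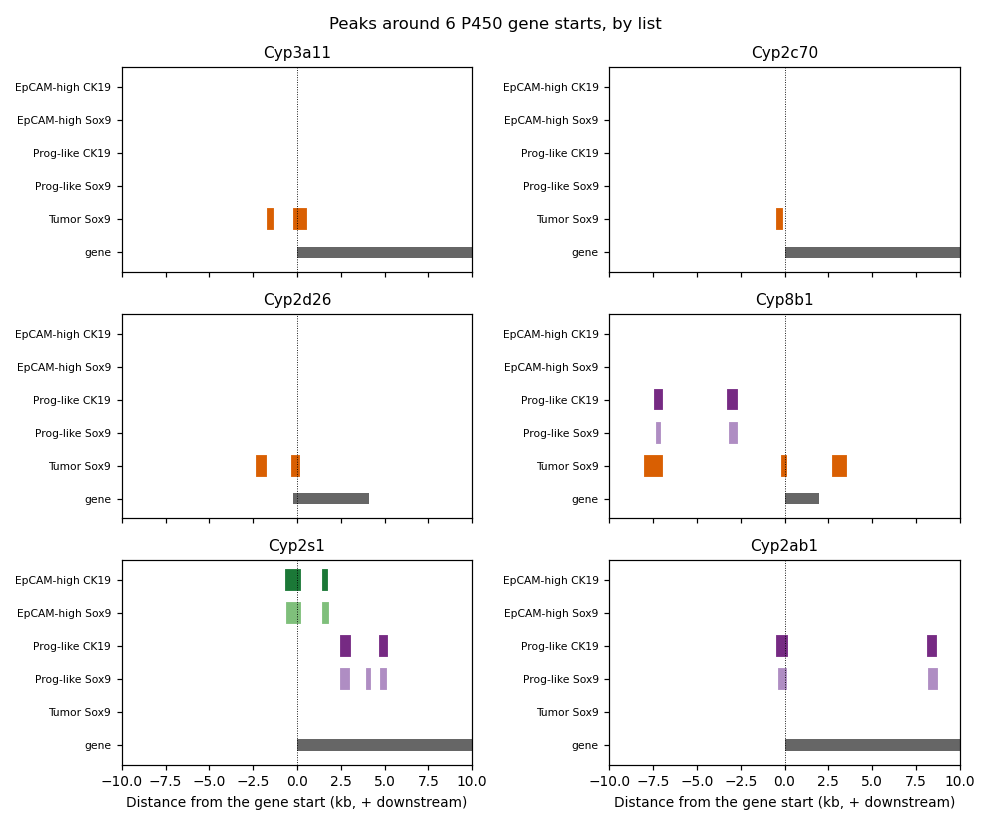
Peaks of the 5 lists (coloured blocks, 1 row per list) and the gene body (grey) within 10 kb of the gene start (x axis, kb, downstream positive) for 6 P450 genes. Cyp3a11, Cyp2c70 and Cyp2d26 hold Tumor blocks alone, Cyp8b1 has Prog-like blocks upstream of its start, Cyp2s1 has EpCAM-high blocks at the start and Prog-like blocks inside the gene, and Cyp2ab1 has Prog-like blocks at the start.

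The CYP2B genes, induced through CAR, were marked mainly in the EpCAM-high lists, with 10, 6, 2, 2 and 1 distinct locus peaks over 5 genes. Their gene ends held a peak at 1 gene in EpCAM-high CK19 (Cyp2b19) and at none in the other 4 lists. Cyp2b10, the CAR-induced form, had 3, 3, 0, 0 and 1 locus peaks. In EpCAM-high CK19 these had summits at −7975, 5073 and 21976, and in EpCAM-high Sox9 at −7953, 5124 and 21977. The same 3 places were thus open in both EpCAM-high lists, and the Tumor peak overlapped the upstream one. CYP2A genes had 0, 0, 0, 0 and 1 distinct locus peaks, at the start of Cyp2a12 (summit at −48, percentile 25.2).

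The single genes of the CYP2S, CYP2F, CYP2T and CYP2W subfamilies differed in where their peaks lay. Cyp2s1, a form of epithelia and of many extrahepatic tissues, had 3, 2, 4, 5 and 0 locus peaks. Its start peak was in the EpCAM-high lists, at percentiles 88.9 and 80.6, and its Prog-like peaks lay inside the gene and past its far end. Cyp2f2, which activates naphthalene in airway cells, had 2, 1, 0, 0 and 2, with end peaks in the EpCAM-high lists and Tumor peaks inside the gene. Cyp2t4 had 4, 3, 2, 2 and 1, again with end peaks in the EpCAM-high lists alone. In every list these included a peak within 1 kb of an end of the gene Egln2. Cyp2w1 had 1, 3, 4, 3 and 3, which in every list included a peak within 1 kb of an end of the gene Cox19. The Tumor end peak of Cyp2w1 was at its far end, 6209 bases from the start, where the gene 3110082I17Rik also ends.

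Cyp2ab1 was the one P450 gene with an end peak in both Prog-like lists and no other. It had 1, 1, 4, 4 and 1 locus peaks, of which the Prog-like peak over the start (summit at −105 in both lists) stood at percentiles 79.2 and 79.5. A place 22925 to 23199 bases downstream of the start, within 1 kb of an end of the gene Parl, was open in all 5 lists. Cyp1b1, which oxidises oestrogens and is induced by the dioxin receptor AHR outside the liver, had 1, 1, 2, 3 and 1. Its end peak was in all 5 lists, with the summit between −741 and −649 and percentiles from 68.3 to 95.3.

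The central drug forms of adult hepatocytes CYP1A2 and CYP2E1 had no locus peak in any list. Cyp2e1, which oxidises ethanol, had its nearest peak 30772, 21504, 69915, 47074 and 42228 bases from a gene end. For Cyp1a2, which clears caffeine, the distances were 24810, 24802, 20855, 24150 and 20803 bases. Cyp1a1, the AHR-induced neighbour of Cyp1a2, had 1, 1, 1, 1 and 0 locus peaks, the same place past the far end of the gene being open in 4 lists. That place lay within 1 kb of an end of the gene Edc3, and its peaks stood at percentiles 29.9, 22.4, 9.9 and 9.37. None of these peaks was kept at equal length. In all, 25 P450 genes (25.5%, against 15.7% of all genes) had no locus peak in any list, 18 of them among the 51 drug and steroid oxidising genes. Besides those named above they were Cyp2a4, Cyp2a5, Cyp2a22, Cyp2d12, Cyp2d34, Cyp2d40, Cyp2j8, Cyp4a12a, Cyp4a12b, Cyp11a1, Cyp11b1, Cyp11b2 and Cyp21a1. For near-identical copies a missing peak is uncertain, because the sources used here do not say how reads that map to several places were treated. Promoters at least 90% identical to that of another P450 gene were found at 5 of the 76 genes with a RefSeq promoter (Cyp2b9 with Cyp2b13 at 99.3%, and Cyp3a41a, Cyp3a41b and Cyp3a44). Bases were compared at the same offset without alignment, so close copies shifted by an insertion or deletion are missed. The 22 genes without a RefSeq promoter were not compared. The number of genes with close copies may therefore be larger.

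In the fatty acid and eicosanoid genes the place of Tumor differed from that in the CYP3A and CYP2D arrays. Of 28 genes, 18, 14, 10, 10 and 8 had an end peak, against 57.8%, 57.7%, 57.4%, 54.4% and 51.1% of all genes. Tumor held the fewest, and it also had the lowest share over all genes. At equal length the counts were 10, 10, 7, 6 and 8, against 53.2%, 51.1%, 48.1%, 45.9% and 51.1%. Tumor was then no longer lowest.

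**Figure D4:**
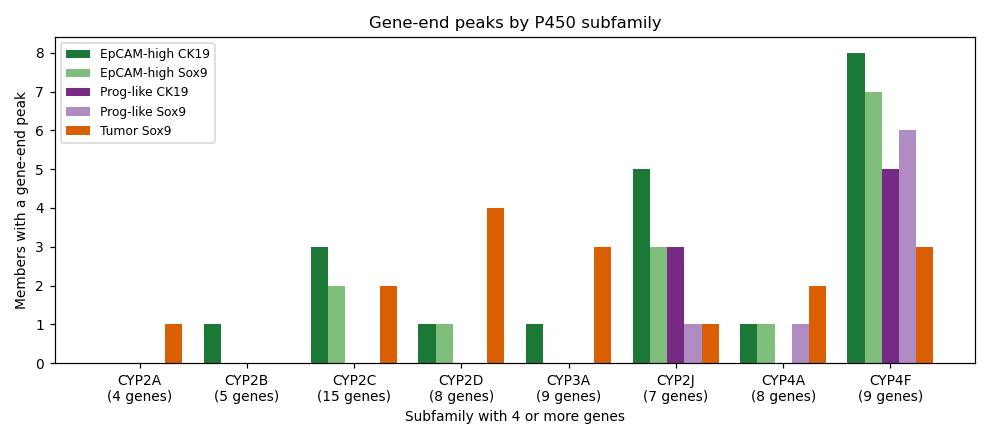
Number of genes with an end peak (y axis) in each subfamily of 4 or more genes (x axis, with its size), by peak list (colour), as deposited. Tumor is highest for CYP2A, CYP2D, CYP3A and CYP4A and lowest for CYP4F, where EpCAM-high CK19 holds 8 of 9 genes and Tumor 3.

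The CYP4F genes, which inactivate leukotrienes and hydroxylate long fatty acids, had an end peak at 8, 7, 5, 6 and 3 of 9 genes. Their loci held 14, 13, 13, 14 and 4 distinct peaks. With the lists cut to equal length, end peaks were at 4, 4, 4, 3 and 3 genes and the distinct locus peaks were 7, 8, 8, 7 and 4, so that Tumor differed little from the other lists in genes with an end peak. Cyp4f18, the leukotriene hydroxylase of myeloid cells, had 1, 1, 5, 6 and 0 locus peaks. Its Prog-like lists held a peak with its summit 1077 and 1080 bases after the start, at percentiles 86.4 and 90.5, while its EpCAM-high end peaks were at the far end of the gene. Cyp4f13 (3, 4, 2, 1 and 2) and Cyp4f17 (3, 3, 4, 5 and 1) had an end peak in all 5 lists, and Cyp4f16 (3, 3, 3, 3 and 0) in every list but Tumor. For Cyp4f13 the Tumor end peak was at the far end of the gene, and its peak at the start, with summits between −92 and −68, was in the other 4 lists. Cyp2j9, Cyp4f18, Cyp4f16 and Cyp4f37 were the 4 P450 genes with an end peak in every list but Tumor.

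CYP2J genes, which make epoxides of arachidonic acid, were marked most in EpCAM-high CK19 as deposited, with an end peak at 5, 3, 3, 1 and 1 of 7 genes and 14, 11, 5, 2 and 3 distinct locus peaks. At equal length the counts were 2, 2, 1, 1 and 1 genes and 9, 8, 2, 2 and 3 locus peaks, with both EpCAM-high lists alike in genes. Cyp2j9 had 5, 3, 1, 1 and 0 locus peaks, and the peak at its start stood at percentile 97.4 in EpCAM-high CK19 and 56.1 in Prog-like Sox9. Cyp2j12 had 3, 2, 0, 0 and 0. Cyp2j5 had 2, 3, 2, 0 and 2, with a start peak at percentile 92.3 in EpCAM-high CK19, 74.6 in Tumor and 18 in Prog-like CK19. Cyp2j6 had no peak at its gene ends but a peak in its 300-base promoter in all 5 lists, because its RefSeq promoter start lies inside the gene interval.

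CYP4A genes, targets of PPARA that hydroxylate fatty acids for oxidation, had few peaks in all lists: end peaks at 1, 1, 0, 1 and 2 of 8 genes and 2, 2, 3, 6 and 4 distinct locus peaks. Cyp4a14 had 0, 0, 1, 2 and 1 and no end peak. Cyp4a32 had 1, 1, 2, 3 and 1, with the same start peak, summits between −172 and −170, in the EpCAM-high and Tumor lists and other places in the Prog-like lists. Of the neighbours in this array, Cyp4b1 had 2, 3, 3, 4 and 1, with start peaks in the EpCAM-high lists alone, and Cyp4x1 had 6, 7, 2, 1 and 1. Cyp4b1 carried Prog-like peaks inside the gene, 7009 and 6963 bases after the start, at percentiles 87.4 and 86.1. The single genes Cyp2u1 (3, 3, 2, 2 and 3) and Cyp4v3 (2, 1, 2, 2 and 4) had an end peak in all 5 lists, and that of Cyp2u1 stood at percentile 92.6 or above in each.

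Genes of bile acid and sterol metabolism had an end peak at 4, 4, 4, 4 and 5 of 6 genes, and at 4, 3, 3, 3 and 5 at equal length. Their distinct locus peaks were 11, 18, 14, 13 and 19, and 9, 12, 8, 7 and 19 at equal length. Cyp27a1, the mitochondrial hydroxylase that opens the alternative bile acid pathway, had 2, 2, 4, 3 and 2 locus peaks. Cyp7b1, the oxysterol hydroxylase of that pathway, had 2, 5, 4, 4 and 7, the highest Tumor count of any P450 gene. Its locus is long, at 192 kb, and held 3.65 Tumor peaks per 100 kb, against 19.4 for Cyp17a1. The end peak of Cyp7b1 ranked at percentiles 81.5, 85.4, 31.6, 20.2 and 81.7 of its own list, high within the EpCAM-high and Tumor lists and low within the Prog-like lists. Such ranks do not compare the significance of a peak between lists. Cyp39a1, another oxysterol hydroxylase, had 3, 3, 2, 2 and 3, and its shared end peak also lay at the end of another gene. Cyp46a1, a cholesterol hydroxylase best known from neurons, had 3, 6, 1, 1 and 1, with the same promoter peak in all lists at percentile 89.2 or above.

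The enzymes of the classic bile acid pathway differed from these. Cyp7a1, its rate-limiting hydroxylase, had 1, 2, 0, 0 and 2 locus peaks and no end peak in any list. Cyp8b1, which commits bile acids to cholic acid, had 0, 0, 3, 3 and 4. Of these, the peak at the start (summit 5 bases after it, percentile 33.1) was in the Tumor list alone. A place upstream, with summits between −7387 and −7251, was open in both Prog-like lists and in Tumor, and a nearer one, with summits at −2855 and −2863, was open in the Prog-like lists alone.

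The steroid hormone genes, which act in adrenal and gonad, had few peaks: end peaks were present at 0, 0, 0, 0 and 1 of 6 genes. The gene with an end peak was Cyp17a1, the hydroxylase and lyase of androgen and cortisol synthesis, with 0, 0, 0, 0 and 5 locus peaks. The leftmost of the 5 lay within 1 kb of an end of the gene Wbp1l. The end peak of Cyp17a1 (46672942 to 46673517 on chromosome 19) had a fold enrichment of 5.25 and a −log10 q of 7.95 in the authors' list, at percentile 46.4. Cyp19a1, the aromatase that makes oestrogens, had 1, 1, 0, 0 and 0 locus peaks, at percentiles 79.6 and 67.8 and away from its ends. Cyp11a1, Cyp11b1, Cyp11b2 and Cyp21a1 had no locus peak in any list.

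Genes of vitamin A and vitamin D metabolism had end peaks at 3, 3, 2, 1 and 3 of 6 genes. Cyp26a1, which degrades retinoic acid, and its neighbour Cyp26c1 shared flanks with 0, 0, 1, 1 and 4 peaks, of which 3 Tumor peaks were at the ends of Cyp26a1. One of these covered its start, with the summit 31 bases after it at percentile 16.4. Cyp26b1, the third retinoic acid hydroxylase, had 3, 1, 2, 2 and 1 and no end peak. Cyp2r1, the liver vitamin D hydroxylase, had 1, 1, 2, 2 and 1, and its start peak was in all lists at percentile 75.9 or above. Cyp27b1, which activates vitamin D in the kidney, had 6, 6, 5, 3 and 3 locus peaks, and its end peaks were in the EpCAM-high lists and Prog-like CK19. Every list's count included a peak within 1 kb of an end of Eef1akmt3 and Mettl1 and another near an end of Cdk4. The EpCAM-high counts also included a peak near an end of Marchf9. Cyp24a1, which inactivates vitamin D, had 1, 3, 0, 0 and 2, with an end peak where the neighbour Pfdn4 also ends in the EpCAM-high lists and Tumor, and a further end peak, away from Pfdn4, in EpCAM-high Sox9. Cyp20a1, a P450 with no settled substrate, had 1 peak in every list, over its start, at percentiles from 90.8 to 95.4.

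Where the peaks of different lists fall at the same place was read by joining overlapping peaks of all lists into regions. The P450 loci held 216 regions of 138775 in all. The latter include regions outside gene loci, so the shares below set gene loci beside the whole genome. Regions of the Tumor list alone made up 42 (19.4%) of them, against 8.45% of all regions. Regions of both Prog-like lists alone made up 34 (15.7%), against 25.8%, and those of both EpCAM-high lists alone 28 (13%), against 9.32%. Regions in all 5 lists numbered 19 (8.8%), close to the 9.75% of all regions. Counted by gene, however, 22 P450 genes (22.4%) had a locus peak in all 5 lists, against 60.8% of all genes. The P450 end peaks also ranked lower than end peaks in general: their median percentiles were 52.4, 52.6, 71.8, 72.5 and 49.6, against 72.9, 73.2, 75.6, 73.3 and 72.5. The few Prog-like peaks were therefore nearer to the general rank than the more numerous EpCAM-high and Tumor peaks.

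The lists were also compared in pairs, and the EpCAM-high lists held more P450 genes that the Prog-like list of the same set lacked than the reverse. In the CK19 set, 18 P450 genes had an end peak in EpCAM-high and not in Prog-like (18.4%, against 6.94% of all genes), and 1, Cyp2ab1, the reverse (against 6.5%). In the Sox9 set, the counts were 13 (against 8.98%) and 2, Cyp4a10 and Cyp2ab1 (against 5.67%). Tumor Sox9 held 13 genes that EpCAM-high Sox9 lacked (13.3%, against 2.57%) and lacked 12 that it held (against 9.17%). Against Prog-like Sox9 it held 19 (19.4%, against 5.4%) and lacked 7 (against 8.69%). Within EpCAM-high, CK19 held 8 genes that Sox9 lacked (against 2.99%), and Sox9 held 1, Cyp4f14, that CK19 lacked (against 2.87%). Within Prog-like, the counts were 3 (against 3.68%) and 2 (against 0.704%). At equal length the counts of EpCAM-high against Prog-like were 14 (against 10.1%) and 2 (against 4.94%) in the CK19 set, and 10 (against 10.2%) and 2 (against 4.95%) in the Sox9 set, so that in the latter the EpCAM-high count equalled the general share. Tumor then held 17 that EpCAM-high Sox9 lacked (against 5.79%) and lacked 8 (against 5.77%), and held 21 that Prog-like Sox9 lacked (against 10.1%) and lacked 4 (against 4.85%). The counts of CK19 against Sox9 became 7 (against 4.08%) and 2 (against 1.98%) for EpCAM-high, and 1 (against 2.9%) and 0 (against 0.722%) for Prog-like. These comparisons share lists and are not independent of each other.

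Around the start itself the picture was similar. Of the 76 P450 genes with a RefSeq promoter, 25, 19, 12, 11 and 21 had a peak in the 300 bases, against 56.4%, 56.1%, 55%, 52.6% and 50.5% of 17492 genes. The choice of 1 kb decided few genes. Just inside it stood Cyp4f37 at 869 bases in EpCAM-high CK19, 877 in EpCAM-high Sox9 and 866 in Prog-like CK19, Cyp4a10 at 920 in Prog-like Sox9 and Cyp2u1 at 611 in Tumor. Just outside stood Cyp2c55 at 1369 and 1541, Cyp2t4 at 1314 and 1369, and Cyp27b1 at 1295.

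P450 promoters carried the letters TATAAA and CAAAGTCCA more often than promoters in general, and those with a Tumor peak alone most of all. RefSeq gave 86 promoters for 76 P450 genes, of which 34 (39.5%) held TATAAA, against 12.6% of 21263 promoters. It stood in 8 of the 9 promoters with a peak in Tumor alone, in 2 of 16 with a peak in an EpCAM-high list and none in Tumor, in 0 of 6 with a peak in all 5 lists and in 22 of 44 with no peak. It was also counted by first base 40 to 20 bases before the start, a window chosen after the data were seen. Matches on either strand were taken, so the direction of the letters was not considered. By this count it stood in 16 of 86 P450 promoters (18.6%), against 3.02% of all. By the same count it stood in 6 of 9, 1 of 16, 0 of 6 and 9 of 44. The HNF4A letters were in 11 P450 promoters (12.8%), all of CYP2C or CYP3A genes except Cyp8b1, against 96 of all promoters (0.451%). In the same order of groups they stood in 3 of 9, 1 of 16, 0 of 6 and 6 of 44. Genes with no peak thus carried both motifs too. Close copies in an array and repeated entries of a gene, such as those of Cyp4f14, counted as separate promoters. The counts are therefore not independent.

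**Figure D5:**
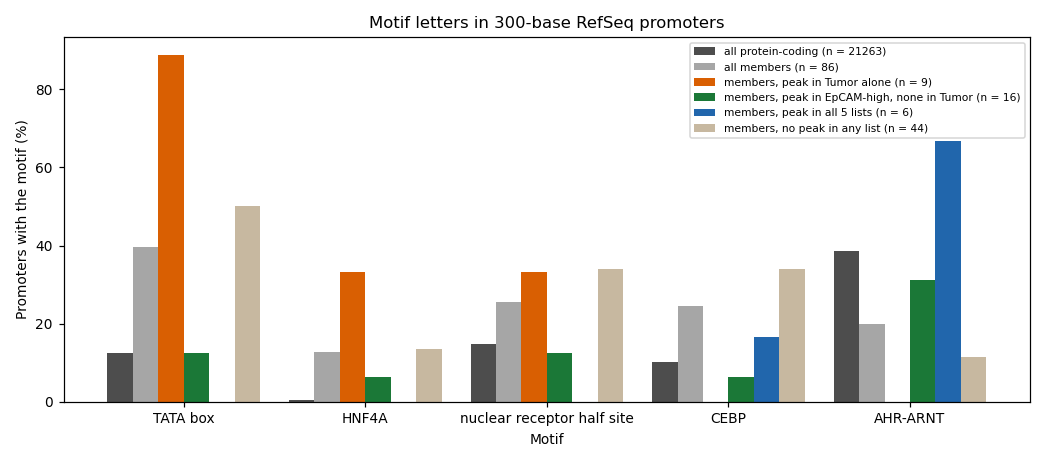
Share of RefSeq promoters of 300 bases that hold the letters of 5 motifs (percent, y axis), for all protein-coding genes and for P450 promoters grouped by the lists with a peak in them (colours, with n). TATAAA stands in 88.9% of the 9 promoters with a peak in Tumor alone, and GCGTG in 66.7% of the 6 with a peak in all 5 lists; the groups are small.

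The other motifs took other shares. The AHR-ARNT core GCGTG was rarer in P450 promoters (17 of 86, 19.8%) than in all promoters (38.5%), but stood in 4 of the 6 with a peak in all 5 lists and in 0 of the 9 with a Tumor peak alone. Median GC content ran with it, at 59.2% for the former, 47.3% for the latter and 56.3% for all promoters. The hexamer AGGTCA was in 25.6% of P450 promoters against 14.7%, and the CEBP letters in 24.4% against 10.2%, the latter in 0 of the 9 Tumor-alone promoters. TEAD (14% against 13.6%) and AP-1 (6.98% against 6.99%) were as frequent as in general, and the E-box (2.33% against 7.84%) was rarer. No P450 promoter held the HNF1 or NR5A letters, which were in 1 and 71 of all promoters. AGGTCA is also part of the NR5A letters. A match of letters is a description and not evidence of binding.

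Genes that work with the P450 enzymes were counted in the same way. Over all protein-coding genes the shares with an end peak were 57.8%, 57.7%, 57.4%, 54.4% and 51.1%. Of 29 regulators of drug metabolism and hepatocyte identity, 27, 26, 20, 20 and 27 had an end peak, and 23, 25, 15, 13 and 27 at equal length. Among them Nr1i3, which encodes CAR, had one in the Tumor list alone, while Ppara and Hnf4a had one in the EpCAM-high and Tumor lists and in neither Prog-like list. Nr1i2, which encodes PXR, had 1, 2, 0, 1 and 2 end peaks, and Ahr had 1 in every list. Of 10 electron donors and haem partners, 8 had an end peak in every list. Por, the reductase that serves the microsomal forms, had none at its ends but 3, 7, 10, 10 and 7 locus peaks.

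Phase II genes, which conjugate the products of P450 reactions, had an end peak at 24, 25, 15, 14 and 26 of 30 genes. All protein-coding genes had shares of 57.8%, 57.7%, 57.4%, 54.4% and 51.1%. At equal length the phase II counts were 23, 23, 10, 10 and 26, against 53.2%, 51.1%, 48.1%, 45.9% and 51.1% of all genes. Their counts were thus lowest in the Prog-like lists, as were those of the drug oxidising P450 genes. Bile acid and sterol genes had one at 12, 10, 12, 12 and 16 of 20, and at 10, 10, 11, 11 and 16 at equal length. Of them 5, Abcb11, Abcg5, Akr1c6, Akr1d1 and Slc10a1, had one in Tumor alone, a pattern of 1.24% of all genes. Retinoid and vitamin D genes had one at 10, 11, 7, 5 and 7 of 17, and partners of steroid synthesis at 2, 3, 3, 3 and 3 of 12. Of the 3 P450 enzymes with other symbols, Cyp51 of cholesterol synthesis had an end peak in every list. Thromboxane synthase, Tbxas1, had 12, 14, 31, 30 and 6 locus peaks and prostacyclin synthase, Ptgis, had 0, 0, 5, 6 and 0, so that both had most in the Prog-like lists.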

How the data were processed

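The series holds 8 ATAC-seq samples of sorted mouse liver cells and 5 peak lists, all of which were used. The build mm10 and the tools Bowtie 1.1.2, MACS2, HOMER and deepTools are named, without roles, in the submitters' processing notes. Pooling of libraries, the shift for Tn5, and the handling of duplicate or multiply mapping reads are not given there, so each list is 1 observation. The deposited lists have the layout of MACS2: the deposited fold enrichment is a ratio to local background, significance is given by the authors as −log10 p and −log10 q, the deposited score is an integer derived from significance, and the deposited summit is an offset in bases. These values ranked peaks within 1 list only.

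Peaks were matched to RefSeq gene intervals of GRCm38.p6 with at least 1 bp of overlap in Python 3.11.15 (pandas 2.3.3, numpy 2.4.6, scipy 1.17.1, matplotlib 3.10.9). Planted peaks in simulated lists were recovered. Strand came from the RefSeq promoter table, which held 76 of the 98 genes; the other 22 have no start position here. Of the symbols, 93 fit the rule from end to end and 5 carry a further letter. Equal length kept the 39644 peaks of lowest p per list. Tandem arrays join genes within 250 kb.

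Named genes were those with a gene-end peak in all 5 lists, up to 25 with one in 1 to 4 lists by the range of their locus peaks (ties alphabetical), the 3 with most locus peaks in each list, and 22 fixed by name; others are named where a count or pattern is listed. The genes, lists and motifs were chosen with earlier results of these data known. No test was run between lists, and shares carry exact 95% binomial intervals. Alternatives were equal length, a −log10 q of 5 or more, summit in the window, 2500 bp windows, flanks of 0 or 50 kb, 50% overlap and the 93 symbols; the gene start alone was added after seeing the data. Read depth is not given in the lists, so list length stands in for it.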

Additional observations from a re-analysis of the deposited data

Results flagged for a closer look

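At 3 genes the difference between the Prog-like and the EpCAM-high list had opposite signs for CK19 and for Sox9, counted in locus peaks, Prog-like minus EpCAM-high. Cyp7b1 had a difference of 2 for CK19 and -1 for Sox9. Cyp26b1 had -1 and 1, and Cyp4f15 also had -1 and 1. With 1 list per condition the differences between the sets were not tested.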

How the results depend on the processing

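Of 188 alternative values for 37 results, 162 stayed within 1.5 times of the reported count and 26 did not. Of the 162, 33 came from the 93 symbols, a setting that could move few counts. A count within 1.5 times can still change the order of lists. Genes with an end peak in EpCAM-high CK19 went from 36 to 26 at equal length, against 30 in Tumor. No paired analysis was possible because there is 1 list per condition and the list columns carry no replicate numbers, and for the same reason no replicate could be left out. Distinct locus peaks were 67, 60, 44, 47 and 52 without a flank and 204, 225, 227, 211 and 187 with 50 kb, where the Prog-like lists no longer held the fewest. At equal length they were 46 and 47 in the Prog-like lists. With 50 kb, 64 and 65 genes had a locus peak in Prog-like CK19 and Sox9. Gene-end peaks in Prog-like CK19 and not EpCAM-high CK19 were at 2 genes at equal length, at a −log10 q of 5 or more and by summit. Those in Prog-like Sox9 and not Tumor were at 4 genes at equal length. Those in EpCAM-high Sox9 and not EpCAM-high CK19 were at 2 genes at equal length, 3 by summit and 0 with 2500 bp. Those in Prog-like CK19 and not Prog-like Sox9 were at 1 gene at equal length and at 1 with a −log10 q of 5 or more, and the reverse at 0 at equal length. Regions of both EpCAM-high lists alone and of both Prog-like lists alone were each 17 at equal length. The cause of these moves was not tested beyond the shorter lists or other windows themselves.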
